A study of Mus musculus with 4 samples.

Results

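The 6 genes described here carry thyroid hormone into brain cells, activate it, bind it and respond to it. They were picked by name from the 15409 gene rows of the deposited tables, though with earlier results of these data known. These are transporter gene Slco1c1, deiodinase gene Dio2, receptor genes Thra and Thrb, response gene Hr and binding protein gene Crym. All 6 were listed in every library, and all 6 were among the 13912 genes tested, with a mean level of 1 CPM or more (a gene's reads scaled to the library's total).

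The tissue was brain septum from mice, sequenced as RNA from cleared homogenate. The mutant group was TCRb-/- (2 libraries), in which the T cell receptor gene for the beta chain is deleted, and the control group was WT (2 libraries). Every mouse of both groups had been restrained in a plastic cone for 30 min on 3 days and was killed 1.5 h after the last session, so no group was unstressed. Each library was 1 pool of tissue from 4 to 5 mice, and each of the 2 experiments supplied 1 pool per genotype, so replicate 1 is experiment 1 and replicate 2 is experiment 2. The labels give no strain, age or sex of the mice and no allele name. The p-values rest on the spread between these pools, which the fit draws towards that of other genes. In the main fits, the genotype comparison counts the shift between experiments as spread. The comparison of experiments likewise counts the difference between genotypes as spread. The labels give nothing else that differed between the 2 experiments.

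Thyroxine, the main hormone the thyroid releases, crosses into the brain through membrane transporters. In glia, type 2 deiodinase turns it into triiodothyronine, which binds receptors that sit on DNA and switch between corepressors and coactivators. Receptor alpha is the main form in most of the brain, and receptor beta is found in fewer regions. Crym encodes mu-crystallin, a cytosolic protein that holds triiodothyronine, and Hr encodes hairless, a corepressor whose gene responds to the hormone in brain.

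Libraries held 19988137 to 26210790 reads. Trbc2, a constant segment of the deleted receptor chain, had 0 reads in both TCRb-/- libraries (a count of 0 allows up to 3 reads, or 0.122 and 0.150 CPM) and 169 and 86 reads in WT replicates 1 and 2, so the genotype labels held. Of 10 septum markers 9 were listed, with summed levels of 312 to 367 CPM over the 4 libraries. Drd3 was not among them. Markers of other tissues stood at unequal levels over the libraries, and the amount of such tissue was not measured. The summed level of 12 striatum markers was 4662 and 4180 CPM in TCRb-/- and WT replicates 1, but 1034 and 2557 CPM in replicates 2, with 12 of 12 lowest in TCRb-/- replicate 2. The summed level of 12 choroid plexus markers was 2155 and 1318 CPM in experiment 1 and 6908 and 4203 CPM in experiment 2 (TCRb-/- first). The 8 thalamus markers summed to 740 and 723 CPM in experiment 1 and 1763 and 1205 CPM in experiment 2. Sums for oligodendrocytes, neurons and microglia stood at 0.837-fold to 1.05-fold their experiment 1 level, and of 6 blood markers 1 was listed.

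Promoter sequences are given as a description of the members that have an entry, and were not related to the differences between experiments. RefSeq's promoter table (GRCm38.p6) matched 3 of the 6 members, Thrb with 2 start sites, Dio2 and Slco1c1. The 250 bases before each start are given 5′ to 3′ on the gene's strand, with matches to 3 motifs in capitals. The motifs, chosen after the sequences were seen and searched on both strands, were AGGTCA (the core bound by thyroid hormone and related receptors), TGACGTCA (the cyclic AMP response element) and TATAAA (the TATA box), and none of the matches overlapped another.
Thrb upstream start, chr14:17660710-17660959, + strand: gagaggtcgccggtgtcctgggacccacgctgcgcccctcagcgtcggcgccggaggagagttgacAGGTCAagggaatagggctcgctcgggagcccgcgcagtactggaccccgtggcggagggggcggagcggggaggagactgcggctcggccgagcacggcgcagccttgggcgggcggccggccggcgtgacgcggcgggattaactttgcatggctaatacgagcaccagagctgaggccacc
Thrb downstream start, chr14:17981394-17981643, + strand: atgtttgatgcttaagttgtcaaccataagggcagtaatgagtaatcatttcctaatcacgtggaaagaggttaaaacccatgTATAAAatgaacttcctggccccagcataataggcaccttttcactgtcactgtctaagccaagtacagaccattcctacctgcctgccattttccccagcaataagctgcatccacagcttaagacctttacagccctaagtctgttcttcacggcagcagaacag
Dio2, chr12:90739039-90739288, - strand: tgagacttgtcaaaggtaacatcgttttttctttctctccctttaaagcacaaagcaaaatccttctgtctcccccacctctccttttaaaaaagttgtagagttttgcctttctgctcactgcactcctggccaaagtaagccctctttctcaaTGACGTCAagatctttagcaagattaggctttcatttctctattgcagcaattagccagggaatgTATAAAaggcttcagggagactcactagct
Slco1c1, chr6:141524104-141524353, + strand: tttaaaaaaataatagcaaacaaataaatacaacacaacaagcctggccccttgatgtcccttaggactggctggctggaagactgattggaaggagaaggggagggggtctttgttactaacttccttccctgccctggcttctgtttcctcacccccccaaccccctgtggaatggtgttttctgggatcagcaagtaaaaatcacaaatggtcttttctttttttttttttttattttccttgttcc

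The upstream Thrb window had 71.6% G and C and 30 CpG dinucleotides, against medians of 52.4% and 6 over all 32851 promoters. Its AGGTCA match lay 184 to 179 bases before the start, a motif found in 14.0% of all promoters. The downstream Thrb window had 44.0% G and C, 2 CpG and a TATAAA match 167 to 162 bases before the start. In Dio2 the TGACGTCA match lay 95 to 88 bases before the start, a motif in 1.55% of promoters, and a TATAAA match lay 30 to 25 bases before it, in 12.4% of promoters. The Slco1c1 window had 42.8% G and C, no CpG and no match to the 3 motifs. A match is a description of the letters and not a measured binding site, and the gene-level values do not separate the 2 Thrb starts.

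Thra, on chromosome 11 from 98740638 to 98769006 (GRCm38, GENCODE M21, + strand), had the highest mean level per length of the 6, though in TCRb-/- replicate 1 it had 74.5 CPM per kb of exon against 76.9 for Crym. TCRb-/- replicate 1 had 343.8 CPM and replicate 2 had 281.6, while WT replicate 1 had 368.1 and replicate 2 had 289.6. Both libraries of experiment 1 lay above both of experiment 2, and within each experiment WT was slightly the higher. Thra shares 263 bases of exon (5.70% of its exon length) with Nr1d1 on the opposite strand, a repressor of the circadian clock. Since the labels do not state whether strand was counted, reads in that stretch cannot be assigned with certainty. Nr1d1 had 126 and 115 CPM in TCRb-/- and 133 and 118 CPM in WT, with experiment 1 again the higher.

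Thrb, on chromosome 14 from 17660261 to 18038090 (+ strand), stood at 70.4 CPM in TCRb-/- replicate 1 and 38.7 in replicate 2, and at 68.3 and 45.3 in the corresponding WT libraries. The libraries of experiment 1 were close together and well above those of experiment 2, of which TCRb-/- was the lower. Per kilobase of exon, Thra stood 7.84-fold above Thrb in TCRb-/- replicate 1 and 8.65-fold in WT replicate 1, and 11.7-fold and 10.3-fold in the replicates 2. This ratio is taken within a library and so does not depend on the scaling between libraries. Its size does depend on the length used. Mean levels were 69.5 (Thra) and 7.52 (Thrb) CPM per kb of exon, but 131 and 8.98 per kb of the longest transcript. Both ratios of experiment 2 were above both of experiment 1, with no test made of them.

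Dio2, on chromosome 12 from 90724552 to 90738438 (- strand), was the lowest of the 6 per length. It had 7.48 and 5.25 CPM in TCRb-/- and 9.12 and 5.59 CPM in WT, resting on 105 to 239 reads a library. The exact 95% Clopper-Pearson intervals, which cover counting error only, were 6.44 to 8.65 and 4.30 to 6.36 CPM in TCRb-/- and 7.999 to 10.4 and 4.65 to 6.66 CPM in WT. The TCRb-/- and WT intervals overlapped within each experiment, and those of the 2 experiments did not overlap in either genotype. Dio2 shares 100 bases of exon (1.72%) with the long noncoding gene Gm26512 on the opposite strand.

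Slco1c1, on chromosome 6 from 141524368 to 141570177 (+ strand), encodes a thyroxine transporter of brain capillaries, choroid plexus and glia. Slco1c1 lies 99.98 Mb from Trbc2 on the same chromosome. It had 23.0 and 39.9 CPM in TCRb-/- and 22.7 and 31.7 CPM in WT. Both libraries of experiment 2 lay above both of experiment 1, the only such member. TCRb-/- replicate 2 was the highest.

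Hr, on chromosome 14 from 70552212 to 70573548 (+ strand), had 10.9 and 12.2 CPM in TCRb-/- and 11.9 and 10.3 CPM in WT. Its groups overlapped by genotype and by experiment, and all 4 counting intervals shared the range from 10.7 to 11.8 CPM. Of the 6 members it varied least.

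Crym, on chromosome 7 from 120186380 to 120202111 (- strand), varied most. It had 261 and 65.5 CPM in TCRb-/- and 244 and 154 CPM in WT. The libraries of experiment 1 were alike, WT replicate 2 was lower, and TCRb-/- replicate 2 was lower still.

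**Figure D1:**
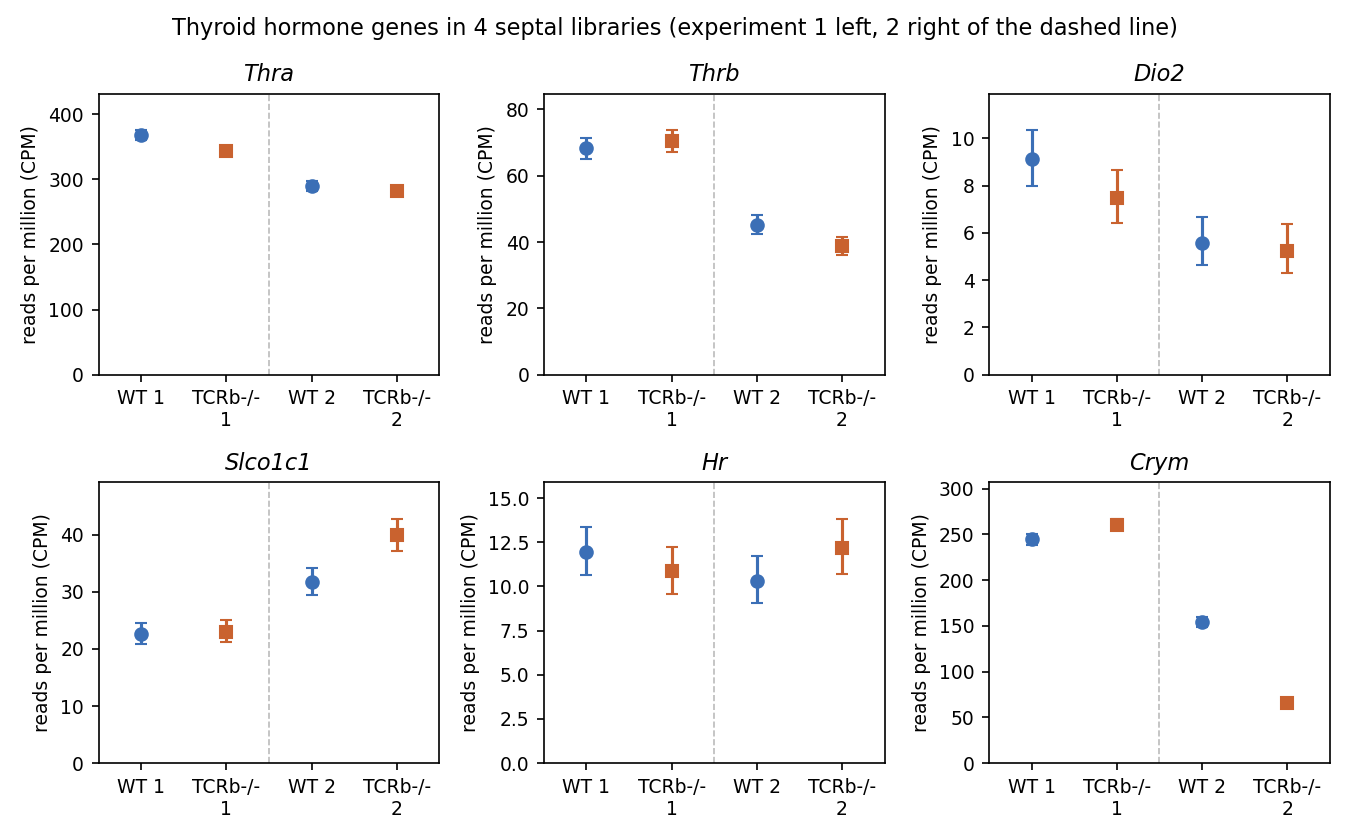
CPM (vertical axis from 0) of the 6 members in each of the 4 libraries, WT as circles and TCRb-/- as squares, with exact 95% counting intervals as bars. Thra, Thrb, Dio2 and Crym are lower and Slco1c1 is higher to the right of the dashed line, in experiment 2, while Hr stays between 10.3 and 12.2 CPM.

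Per kilobase of exon the members fell into 3 pairs, by mean ± SD over the 4 libraries. Thra (69.5 ± 9.09 CPM per kb) and Crym (53.4 ± 26.6) were highest, Thrb (7.52 ± 2.16) and Slco1c1 (5.65 ± 1.58) intermediate, and Hr (1.64 ± 0.128) and Dio2 (1.18 ± 0.309) lowest. Within each pair the values of the libraries overlapped, and between pairs they did not. With the longest transcript as length, Thra (131 CPM per kb) stood further above Crym (67.6), and Slco1c1 (9.23) came just above Thrb (8.98). The overlap within pairs is described for exon length only.

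The main comparison asked whether septal tissue without T cell receptor beta differed from WT after stress in these genes. No member passed. Differences are given on the log2(CPM + 1) scale, TCRb-/- minus WT, from limma across all genes tested, with Benjamini-Hochberg adjustment. They were -0.07 (SE 0.18) for Thra, -0.09 (SE 0.34) for Thrb, -0.17 (SE 0.29) for Dio2, 0.17 (SE 0.31) for Slco1c1, 0.05 (SE 0.18) for Hr and -0.56 (SE 0.65) for Crym. Each adjusted p was 1.00 in limma. The same fit called 0 of 13912 genes (0.0%), and 43 (0.309%) had an unadjusted p under 0.05, none of them a member. The genotypes overlapped in 6 of 6 members. They did not overlap in 17.8% of all genes tested, and with 6 genes this does not set the members apart.

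The fit without the experiment as a block could not have shown small genotype differences in these libraries. The 95% intervals of the differences ran from -0.52 to 0.38 for Thra, -0.94 to 0.76 for Thrb, -0.89 to 0.56 for Dio2, -0.60 to 0.94 for Slco1c1, -0.40 to 0.49 for Hr and -2.19 to 1.06 for Crym. With the experiment as a replicate block the differences were the same and the intervals narrower, from -0.22 to 0.08 for Thra at the narrowest and from -1.13 to 0.0027 for Crym at the widest. In that fit 2 genes were called (0.0144%) and 784 (5.64%) had an unadjusted p under 0.05, none of either a member. Crym came nearest, at an unadjusted p of 0.0509 (adjusted p 0.848 in limma). In the fit without the block, Crym passed when TCRb-/- replicate 1 was left out (difference -1.55, adjusted p 0.00244 in limma), which leaves the single TCRb-/- library of experiment 2, and its difference was 0.42 when TCRb-/- replicate 2 was left out.

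Within experiments, each with 1 library per genotype and hence no test, Thra (-0.10 and -0.04 in experiments 1 and 2) and Dio2 (-0.25 and -0.08) were lower in TCRb-/- both times. Slco1c1 (0.02 and 0.33) was higher both times. Thrb (0.04 and -0.22), Hr (-0.13 and 0.22) and Crym (0.09 and -1.22) differed in sign. Over all genes tested, the sign differed between experiments in 6739 of 13912. Crym had 1.07-fold the WT level in experiment 1 and 0.426-fold in experiment 2. The summed striatum markers stood at 1.12-fold and 0.405-fold WT in the same comparisons. Their part in the difference was not tested, and in bulk tissue fewer cells of a type and less RNA per cell cannot be told apart.

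**Figure D2:**
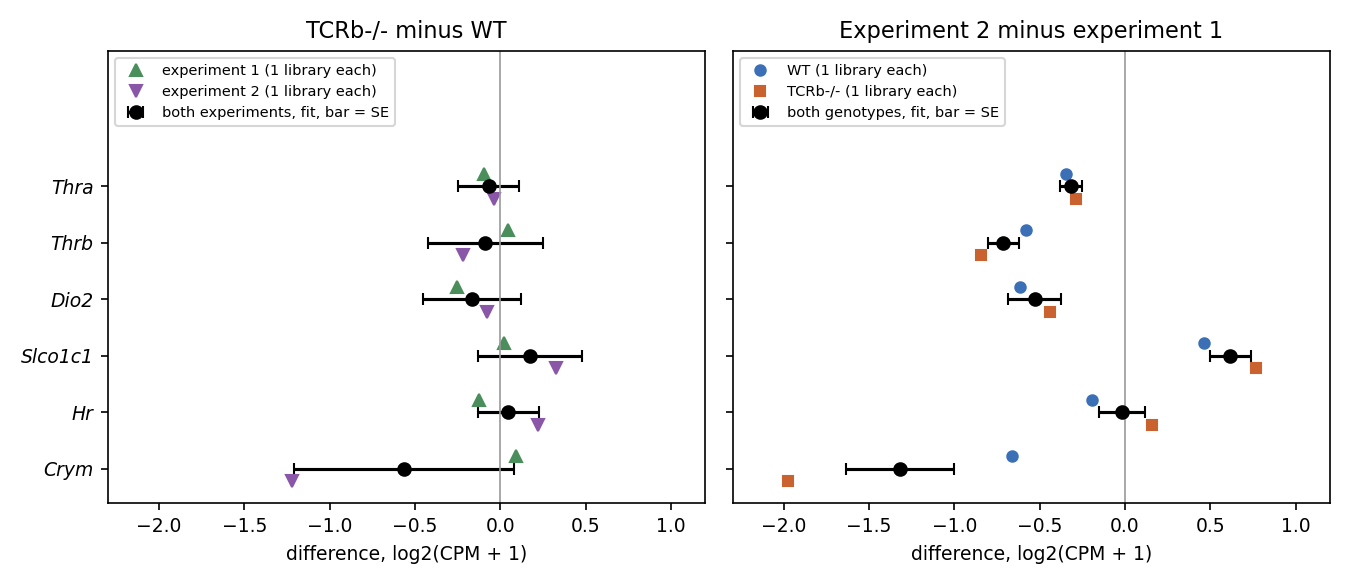
Differences in log2(CPM + 1) for the 6 members, TCRb-/- minus WT on the left and experiment 2 minus experiment 1 on the right. Black points are the limma estimates with SE as bars, and coloured points are differences between single libraries, within 1 experiment (left) or 1 genotype (right). On the left every estimate lies within 1 SE of 0, and on the right 5 of 6 lie well to a side of it, in both genotypes.

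Between the experiments 5 of 6 members changed, 4 lower and 1 higher in experiment 2, whereas limma called 23.7% of all genes tested (14.7% lower and 8.95% higher). Thrb fell by 0.71 (SE 0.09, adjusted p 0.00535 in limma), from 69.3 ± 1.49 CPM to 42.0 ± 4.62 (SD, n = 2 each, the genotypes together). Thra fell by 0.32 (SE 0.07, adjusted p 0.0151), from 356 ± 17.2 to 286 ± 5.64 CPM. Dio2 fell by 0.53 (SE 0.15, adjusted p 0.0430), from 8.30 ± 1.16 to 5.42 ± 0.239 CPM. Crym fell by 1.32 (SE 0.32, adjusted p 0.0233), from 253 ± 11.5 to 110 ± 62.5 CPM. Slco1c1 rose by 0.62 (SE 0.12, adjusted p 0.0131), from 22.8 ± 0.254 to 35.8 ± 5.84 CPM. Hr had 11.4 ± 0.765 and 11.3 ± 1.33 CPM (difference -0.02, SE 0.14, adjusted p 0.936), a difference that was 0.01 under median-of-ratios scaling and 0.07 under quantile normalization.

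The shift had the same direction in both genotypes for those 5. In TCRb-/- and WT respectively the level in experiment 2 was 0.819-fold and 0.787-fold that in experiment 1 for Thra, 0.550-fold and 0.663-fold for Thrb, 0.702-fold and 0.613-fold for Dio2, 1.73-fold and 1.40-fold for Slco1c1, and 0.251-fold and 0.630-fold for Crym. Hr had 1.12-fold and 0.865-fold. The experiments did not overlap in 5 of 6 members, against 67.3% of all genes tested. Without a mean-variance trend in limma 1 of 6 members was called (Thrb, adjusted p 0.0455), against 4.52% of all genes, and the other 4 had adjusted p-values from 0.0553 to 0.0897. The call of Dio2 ended under median-of-ratios scaling (adjusted p 0.0507) and quantile normalization (0.0672) as well. Without TCRb-/- replicate 1, TCRb-/- replicate 2 or WT replicate 1, limma called 2, 3 and 1 of the 6 members respectively, and 5 without WT replicate 2. Of all genes called, 37.8% were higher in experiment 2, and 50.6% under quantile normalization.

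Levels also moved with gene length. Across 13574 genes tested with an exon length, which are not independent replicates, the difference between experiments had a Spearman rho of -0.398 with length, longer genes being lower in experiment 2. Exon lengths were 7403 bases for Thrb, 6919 for Hr, 5815 for Dio2, 5186 for Slco1c1, 4614 for Thra and 3391 for Crym, against a median of 4461 over these genes. The part of length in the members' differences was not tested.

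Crym moved beside the striatal genes. Its level was 5.59% and 6.34% of the summed level of the 12 striatum markers in TCRb-/- replicates 1 and 2, and 5.85% and 6.02% in WT. That share was nearly level while the sum itself ran from 1034 to 4662 CPM. By distance between centred log2(CPM + 1) profiles over the 4 libraries, the 3 genes nearest to Crym were Gpr6 (0.08), Rarb (0.12) and Penk (0.14), all on the striatum list. Gpr6 is a receptor of striatal projection neurons and had 86.0 and 20.3 CPM in TCRb-/- and 76.1 and 46.8 CPM in WT. Only Gpr6 lay within 0.1 of Crym. With 4 libraries such likeness is a description.

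The share of Thrb was less even. It was 1.51% and 3.74% of the striatum sum in TCRb-/- replicates 1 and 2, and 1.63% and 1.77% in WT. Against the 10 cortex and hippocampus markers, whose sum went from 386 and 486 CPM (TCRb-/- and WT) in experiment 1 to 151 and 159 CPM in experiment 2, Thrb was 18.2% and 14.1% in experiment 1 and 25.7% and 28.4% in experiment 2. Hr had the same 10.3 to 12.2 CPM while that sum fell. The genes nearest to Thrb were Plekha2 (0.03), Zfp180 (0.03) and A330023F24Rik (0.03), with 65 genes within 0.1, and those nearest to Hr were Slf1 (0.02), Lrrc18 (0.02) and Rbm12 (0.03), with 200 genes within 0.1. Thra had 359 genes within 0.1, led by Dennd5a, Gab1 and Acsl1 (0.02 each).

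Between experiments Slco1c1 was higher where choroid plexus markers were higher, but by less. Between genotypes the choroid plexus sum in TCRb-/- was 1.63-fold and 1.64-fold WT in experiments 1 and 2. Slco1c1 stood at 1.02-fold and 1.26-fold WT in the same comparisons. The 12 choroid plexus markers summed to 3.21-fold and 3.19-fold their experiment 1 level in experiment 2 (TCRb-/- and WT), with 12 of 12 higher in both genotypes. Slco1c1 was 1.07% and 0.578% of that sum in TCRb-/- and 1.72% and 0.753% in WT. The 12 astrocyte markers summed to 2848 to 3157 CPM, 0.979-fold and 1.03-fold in experiment 2. Of 12 endothelial markers 10 were listed, with Cdh5 and Abcb1a not among the rows, and Cldn5 had 1.12 to 1.98 CPM. The endothelial sum was 73.1 to 83.7 CPM, 0.995-fold and 0.910-fold in experiment 2, and most of it came from Slc2a1 (37.4 to 45.1 CPM) and Itm2a (20.2 to 21.3 CPM). Of the 10 endothelial markers 5 were lower and 2 higher in experiment 2 in both genotypes, with a median difference of -0.26. Nearest to Slco1c1 were Trpm6 (0.02), Hspb8 (0.04) and Gldn (0.04), with 20 genes within 0.1. The 8 thalamus markers, not drawn beside it, summed to 2.38-fold and 1.67-fold their experiment 1 level in experiment 2 (TCRb-/- and WT). Their sum in TCRb-/- was 1.02-fold and 1.46-fold WT in experiments 1 and 2. Which tissue or cell type carried the Slco1c1 difference was not tested.

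Dio2, a gene of astrocytes and of tanycytes along the ventricle, was 0.237% and 0.170% of the astrocyte sum in TCRb-/- and 0.320% and 0.191% in WT. Of 9 ependymal and tanycyte markers 8 were listed, 6 of them higher in experiment 2 in both genotypes and none lower in both. Rax, which marks tanycytes, was not among the rows. Nearest to Dio2 were Tfdp2 (0.03), Gm43172 (0.05) and Tab3 (0.05), with 43 genes within 0.1.

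**Figure D3:**
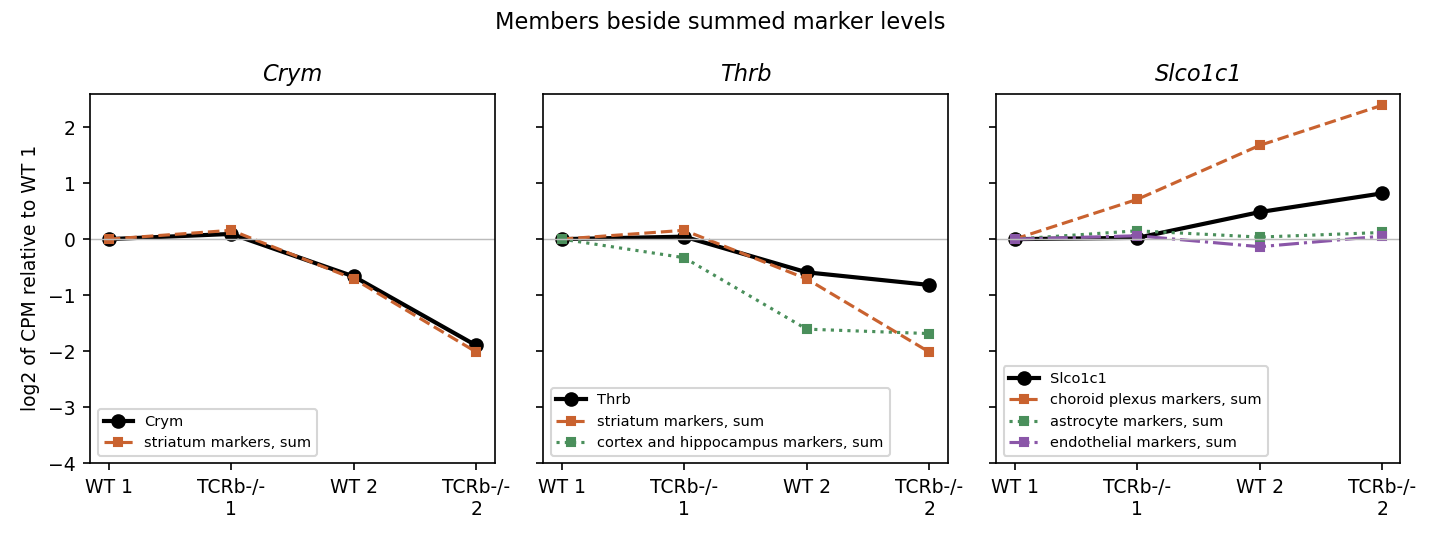
Level of Crym, Thrb and Slco1c1 (black) and summed level of marker lists (coloured) in each library, as log2 of CPM relative to WT replicate 1. The Crym line lies along the striatum line, whereas Thrb falls less than either list beside it and Slco1c1 rises between the choroid plexus sum and the nearly level summed astrocyte and endothelial markers.

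The wider pathway was described from lists of 47 genes by role, 41 of them not members. Of these 41, 37 were listed and tested, while Slc16a10, Dio1, Marchf6 and Pcp2 were not matched to a row. Between experiments limma called 12 of the 37 (32.4%, against 23.7% of all genes), 1 higher and 11 lower. Their median difference was -0.14, against -0.03 over all genes tested. Without the mean-variance trend 2 of 37 were called, Ncoa1 and Ncoa2, against 4.52% of all genes tested. Rxrg and Ttr stand on the striatum and choroid plexus lists too, and Slco1a4 on the endothelial list.

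Among transport and binding genes other than members, 1 of 6 was called between experiments (16.7%, against 23.7% of all genes tested). Ttr, the carrier of thyroxine that the choroid plexus secretes, had 1204 and 4478 CPM in TCRb-/- and 638 and 2591 CPM in WT, and rose by 1.96 in experiment 2 (SE 0.31, adjusted p 0.00800 in limma). In this list 5 of 6 were higher in TCRb-/- in both experiments, Ttr among them, against 3760 of all 13912 genes tested. Ttr was the 1 pathway gene called by genotype with the block (difference 0.85, adjusted p 0.0323 in limma). With the block fitted to the deposited log2 values, 0 pathway genes were called. TCRb-/- exceeded WT in each experiment for 12 of 12 choroid plexus markers.

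Of the genes for other deiodinases and for their synthesis and turnover, 1 of 7 was called between experiments (14.3%, against 23.7% of all genes tested). Wsb1, part of the ligase that marks type 2 deiodinase for breakdown, fell by 0.47 (SE 0.08, adjusted p 0.00860 in limma), with 56.05 and 39.5 CPM in TCRb-/- and 57.3 and 41.8 CPM in WT. Dio3, which inactivates the hormone, had 3.00 to 3.97 CPM over the libraries and did not pass. Sephs2, Secisbp2 and Eefsec, which serve the making of selenoproteins such as the deiodinases, did not pass either, with differences from -0.15 to -0.01.

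Of 13 receptor partners and coregulators, 5 were called (38.5%, against 23.7% of all genes tested), all lower in experiment 2. They were the partner receptors Rxra (-0.42) and Rxrg (-1.03) and the 3 coactivators of the p160 family, Ncoa1 (-0.53), Ncoa2 (-0.50) and Ncoa3 (-0.66), with adjusted p-values in limma from 0.00635 to 0.0274. Ncoa1 had 94.1 and 60.6 CPM in TCRb-/- and 87.3 and 64.5 CPM in WT. Rxrg had 168 and 54.1 CPM in TCRb-/- and 147 and 107 CPM in WT, and like Crym it was lowest in TCRb-/- replicate 2. The corepressor gene Ncor1 (-0.10) and Hdac3 (0.10), which encodes a deacetylase of corepressor complexes, did not pass. The coregulator genes Med1 (-0.22), Tbl1x (-0.15), Tbl1xr1 (-0.12) and Gps2 (0.02) and the partner gene Rxrb (-0.12) did not pass either. Whether coactivator and corepressor genes differed from each other was not tested. By genotype, 11 of the 13 changed sign between experiments.

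Of 11 response genes other than Hr, 5 were called (45.5%, against 23.7% of all genes tested). All 5 were lower in experiment 2, as were 14.7% of all genes. Rasd2, a small G protein of the striatum, had 984 and 323 CPM in TCRb-/- and 870 and 510 CPM in WT (difference -1.19). Camk4 (-1.06), Reln (-0.98), Klf9 (-0.63) and Nrgn (-0.53) were the others, with adjusted p-values in limma from 0.00722 to 0.0204. Rasd2 in experiment 2 was 0.328-fold and 0.586-fold its experiment 1 level (TCRb-/- and WT). The summed striatum markers were 0.222-fold and 0.612-fold. The part of striatal tissue in the differences of these response genes was not tested. Klf9 encodes a transcription factor induced by thyroid hormone and by glucocorticoids. Klf9 had 214 and 138 CPM in TCRb-/- and 252 and 161 CPM in WT, lower in TCRb-/- in both experiments (-0.24 and -0.22, unadjusted p with the block 0.00852, adjusted 0.848, in limma). The myelin gene Mbp, with 3189.5 to 3929.8 CPM, did not pass, nor did the clock output gene Dbp, with 104 to 113 CPM. Sema7a was lower in TCRb-/- in both experiments (-0.32 and -0.25) and had 2.81 and 1.65 CPM against 3.74 and 2.15 CPM in WT. That difference by genotype did not pass (unadjusted p with the block 0.166, adjusted 0.891, in limma).

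Thrsp, a gene of fat synthesis that thyroid hormone induces in liver, was higher in TCRb-/-. It had 63.5 and 73.9 CPM in TCRb-/- and 44.8 and 57.4 CPM in WT, without overlap, a difference of 0.43 (SE 0.18) that did not pass (unadjusted p 0.0554, and 0.000813 with the block, adjusted 0.476, in limma). Between experiments it was called with the block, higher in experiment 2 (difference 0.28, adjusted p 0.0388 in limma), and not without it (0.256). Of the 37 pathway genes other than members, 6 had genotypes that did not overlap, a share close to the 17.8% of all genes, and 0 were called by genotype in limma without the block. None of the 37 had an unadjusted p under 0.05 in that fit, and 6 of 37 had one with the block, against 5.64% of all genes.

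**Figure D4:**
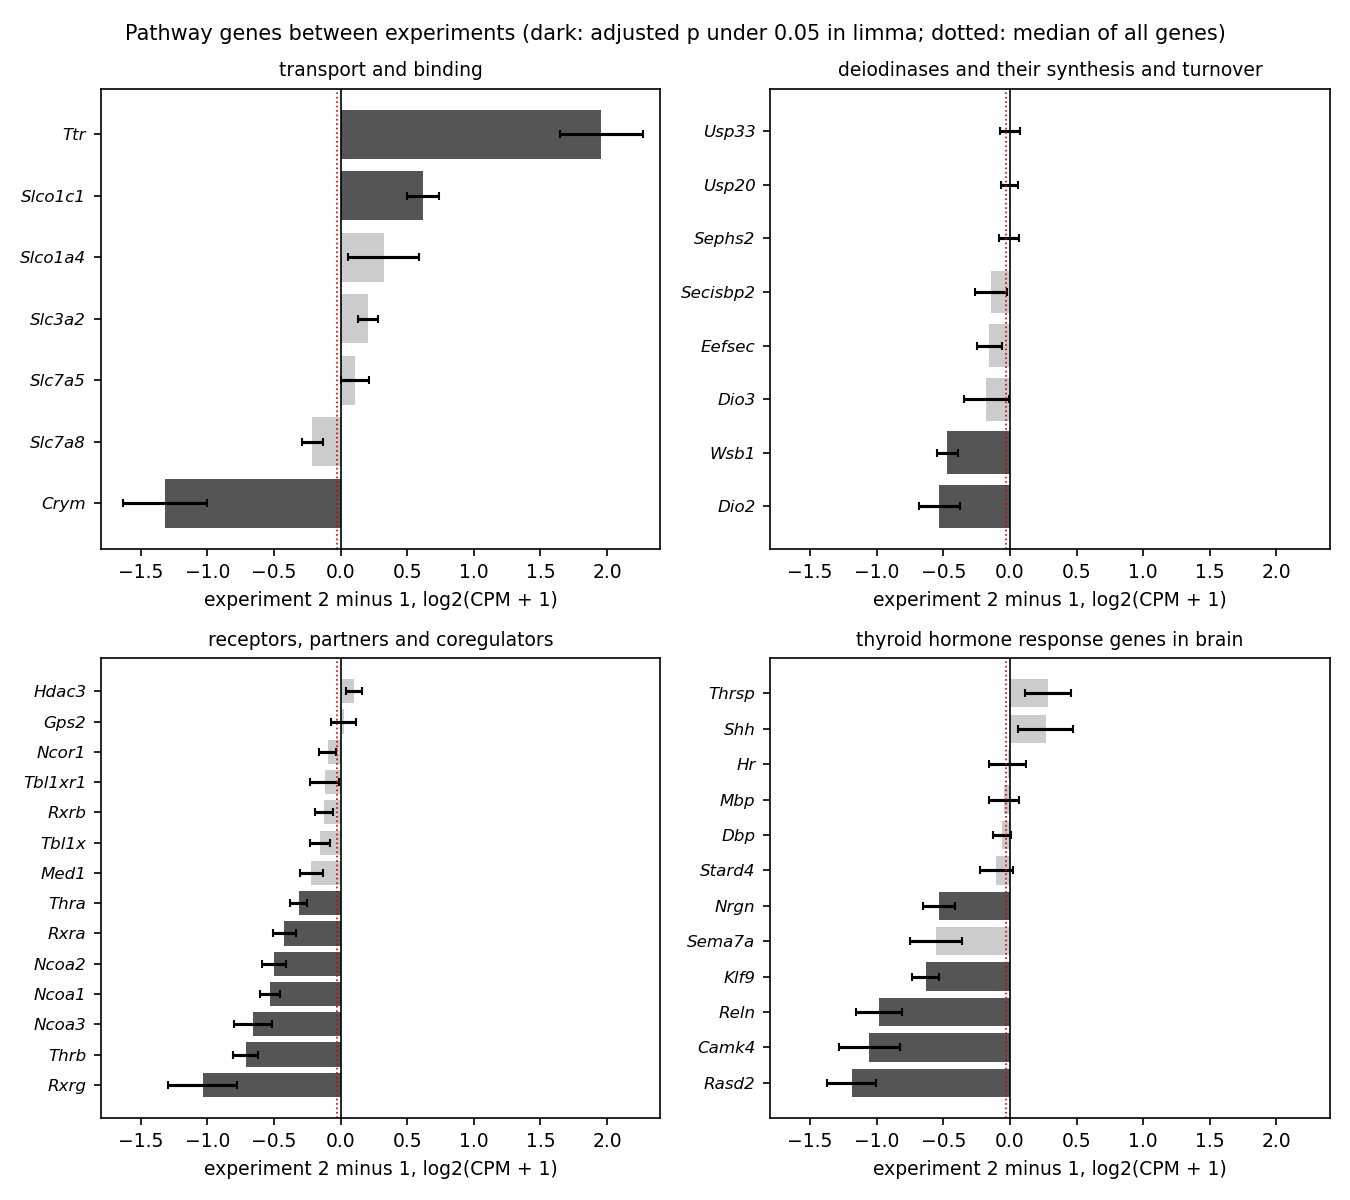
Difference between experiments in log2(CPM + 1), experiment 2 minus experiment 1, for 41 of the 43 pathway genes tested, members included, in 4 lists by role. Bars are limma estimates with SE, dark where the adjusted p was under 0.05, and the dotted line is the median of all genes, -0.03. Dark bars point left in the receptor and response lists, and Ttr and Slco1c1 are the 2 dark bars that point right.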

How the data were processed

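Septal RNA of 4 pooled samples was sequenced. The authors deposited 1 table per library of log2 CPM, and the submitters' processing notes name HISAT2 2.1.0, SAMtools 1.3, HTSeq 0.9.1, R 4.0.5, limma 3.46.0 and mm10, with no role or order. The rule for keeping rows, and whether strand was counted, is not given in the sources used here. The deposited log2 values returned whole reads for 100% of entries (within 0.001 reads) when 0.5 had been added to reads and 1 to the total, which gave totals of 19988137 to 26210790 reads.

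From the 15426 rows, 17 spike-in rows were left out, and 12 gene rows share a symbol. CPM was computed from the reads, and log2(CPM + 1) of the 13912 genes averaging at least 1 CPM was tested with limma 3.58.1 in R 4.3.3 (mean-variance trend, Benjamini-Hochberg threshold 0.05), by genotype over all 4 libraries and between experiments over the same libraries. Count models were not used. Tables and figures were made with Python 3.11.15, pandas 2.3.3, scipy 1.17.1 and matplotlib 3.10.9. The fit was tested on simulated data that held large genotype differences and no shift between experiments. How it performs under a shift like the one seen here was not tested.

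The labels give the experiment as batch, so replicate numbers pair the libraries. Deviations of same-numbered libraries correlated across genes (r 0.719). With 2 against 2 libraries, an exact permutation test of 1 gene cannot go below a p of 0.3333. Exact intervals and the floor of 3 reads cover counting error only. Exon lengths came from GENCODE M21 and promoters from RefSeq.

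The members and gene lists were chosen with earlier results of these data known. Genes were named by rule: the members, pathway genes past a threshold or differing by at least 0.2 with the same sign in both experiments, the 3 nearest profiles per member, Trbc2 and markers. The pathway genes Dio3, Sephs2, Secisbp2, Eefsec, Ncor1, Hdac3, Mbp and Dbp, and Nr1d1, fall outside it. So do Rxrb, Med1, Tbl1x, Tbl1xr1 and Gps2. All of these were chosen after their values were seen. Alternatives were the replicate block, other pseudocounts, filters, scalings and moderation, and leaving out each library. The values of 2 pathway genes are not reported here, and counts over the lists include them.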

Additional observations from a re-analysis of the deposited data

Results flagged for a closer look

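In 3 members the TCRb-/- minus WT difference had opposite signs in the 2 experiments. The difference in experiment 2 minus that in experiment 1, on the log2(CPM + 1) scale, was -0.26 for Thrb, 0.35 for Hr and -1.31 for Crym. With 1 library per genotype in each experiment these differences were not tested. Signs were opposite in 6739 of all 13912 genes tested.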

How the results depend on the processing

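With all libraries in, 108 of 118 values of the members' differences kept their direction and side of the threshold, and 3 changed sign. With a library left out, 25 of 48 kept them and 13 changed sign, which leaves 1 library in an arm (assumed to vary like the others) and the experiments unbalanced. The pairing, as a replicate block, called 2 genes by genotype and 1 pathway gene (Ttr), against 0 and 0 without it. Of 2 combinations chosen after seeing the data, the block with quantile normalization gave 2 and 1, and the block with the deposited log2 values gave 0 and 0. It ended or added no member's call. Without a mean-variance trend 629 genes, 3 pathway genes and 1 member were called between experiments, and Thra (-0.32), Dio2 (-0.53), Slco1c1 (0.62) and Crym (-1.32) no longer passed. Dio2 did not pass under median-of-ratios scaling (-0.50), quantile normalization (-0.46) or the block with quantile normalization (-0.46). The Hr difference between experiments changed sign in those same settings, to 0.011, 0.070 and 0.070. The causes were not tested. Dio2 gave no value with a minimum of 10 CPM.

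Leaving out each library in turn gave 0 to 47 genes called by genotype (47 without TCRb-/- replicate 1), 0 to 3 pathway genes and 0 to 1 members. The genotype differences ran from -0.24 to 0.10 for Thra, -0.51 to 0.33 for Thrb, -0.47 to 0.14 for Dio2, -0.21 to 0.56 for Slco1c1, -0.048 to 0.14 for Hr and -1.55 to 0.42 for Crym. Between experiments 1406 to 3390 genes, 8 to 20 pathway genes and 1 to 5 members were called. The differences ran from -0.37 to -0.27 for Thra, -0.82 to -0.60 for Thrb, -0.66 to -0.40 for Dio2, 0.45 to 0.78 for Slco1c1, -0.13 to 0.092 for Hr and -1.93 to -0.71 for Crym. Individual values that changed sign for Thra were 0.07 and 0.10, for Thrb 0.33 and 0.20, for Dio2 0.06 and 0.14, for Slco1c1 -0.21 and -0.06 (each without TCRb-/- replicate 2 and WT replicate 1) and for Hr -0.03 and -0.048 (without TCRb-/- replicate 2 and WT replicate 2). Depth limits Dio2 most, at 105 to 239 reads.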
